A study of Mus musculus with 9 samples.

Results

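The genes described here are the tissue inhibitors of metalloproteases Timp1, Timp2 and Timp3 and the matrix metalloproteases Mmp2, Mmp3, Mmp9, Mmp10, Mmp13, Mmp14 and Mmp19, followed in mouse breast carcinoma cells depleted of Med4. They were taken by gene name, 10 of 55335 gene identifiers, and all 10 were among the 14335 genes with enough reads to be tested. D2A1-d is a mouse breast carcinoma line studied as a model of metastatic dormancy, and Med4 is one protein of Mediator, which relays signals from DNA-bound factors to RNA polymerase II. The cells had been transduced with a non-targeting control hairpin (NTC, labelled wild type) or with short hairpin RNA #1 or #4 against Med4 (shMed4 #1 and shMed4 #4, labelled Med4 knockdown), were cultured with serum, and were otherwise untreated. Each group holds 3 libraries numbered as biological replicates, with 7572114 to 8582235 reads assigned to genes per library. Separate transduction of the replicates is not stated, nor whether the transduced cells were pools or clones, so p-values speak only for the spread among these libraries, which may be technical.

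Matrix metalloproteases are zinc-dependent endopeptidases, secreted or anchored in the cell membrane, which are made as inactive precursors and cleave collagens, laminins, fibronectin and other matrix proteins as well as one another. TIMPs occupy the active site of the mature enzymes and block them, and each TIMP has its own range of partners, with Timp3 also acting on ADAM and ADAMTS proteases and Timp2 also serving as the bridge by which Mmp14 at the cell surface captures and activates the Mmp2 precursor. In breast carcinoma these enzymes are known for their part in invasion and in remodelling the matrix around disseminated cells. The measurements here are of transcripts only, so they say nothing of secreted protein, activation or enzyme activity.

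Mmp3, Mmp10 and Mmp13 lie in a cluster of metalloprotease genes on chromosome 9. Mmp3 and Mmp10 fell with both hairpins and Mmp13 with shMed4 #1 only, and the 100 bases before the start of each are shown because the same motif pair recurs in them. They are taken from RefSeq on GRCm38.p6, read 5′ to 3′ on the plus strand, and capitals mark matches to TGANTCA, the AP-1 motif bound by Fos and Jun dimers, and to TATAAA, the TATA box.
Mmp3, chr9:7445722-7445821: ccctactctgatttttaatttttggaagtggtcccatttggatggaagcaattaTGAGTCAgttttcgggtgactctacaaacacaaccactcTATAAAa
Mmp10, chr9:7502242-7502341: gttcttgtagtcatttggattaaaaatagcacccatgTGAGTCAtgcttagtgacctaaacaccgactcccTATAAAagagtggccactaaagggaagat
Mmp13, chr9:7272414-7272513: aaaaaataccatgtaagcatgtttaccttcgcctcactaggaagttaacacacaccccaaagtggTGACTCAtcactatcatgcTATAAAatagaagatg

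The windows of Timp1 and Timp3, which were higher in knockdown cells, are set beside them and hold neither motif. Nor do those of Mmp14, which fell with both hairpins, and Timp2, which passed with neither (windows not printed). Windows end just before the RefSeq start, which differs from the GENCODE start for Timp2, Timp3, Mmp10 and Mmp14. The Timp2 window (118355412 to 118355511) lies inside its GENCODE gene body. The Timp3 window runs past its GENCODE start at 86300372. Whether the motifs go with the direction of change was not tested.
Timp1, chrX:20870066-20870165, plus strand: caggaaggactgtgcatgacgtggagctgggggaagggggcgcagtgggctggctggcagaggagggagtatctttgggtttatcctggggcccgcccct
Timp3, chr10:86300312-86300411, plus strand: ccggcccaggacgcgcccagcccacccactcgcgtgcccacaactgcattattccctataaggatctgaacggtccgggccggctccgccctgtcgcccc

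Promoter sequences were found for 7 of the 10 genes, the exceptions being Mmp2, Mmp9 and Mmp19. Searched on both strands over 250 bases before to 50 bases after the start, TGANTCA was present in Mmp3, Mmp10 and Mmp13 and in none of the other 4, against 7.81% of all 32851 promoters. In the 100 bases before the start alone, 2.73% of all promoters held it. The first base of the match lay 46 bases before the annotated start in Mmp3, 63 in Mmp10 and 35 in Mmp13. TATAAA was found in the same 3 genes, against 13.6% of all promoters over the longer window. Its first base lay 7 bases before the RefSeq start in Mmp3, 29 in Mmp10 and 16 in Mmp13. The 3 genes belong to a single cluster, so their matches may not be independent. The GC box GGGCGG, bound by Sp1-type factors, was in Timp1, Timp2, Timp3 and Mmp14, against 35.7% of all promoters. The ETS motif AGGAAG was in Mmp3, Mmp13, Mmp14, Timp1 and Timp3, against 35.4%. The matches to the different motifs did not overlap one another. G and C made up 38% of the 100 bases in Mmp3 and Mmp13, 41% in Mmp10, 54% in Mmp14, 65% in Timp1, 69% in Timp3 and 75% in Timp2. A match is a string of letters and not a measured binding site.

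**Figure D1:**
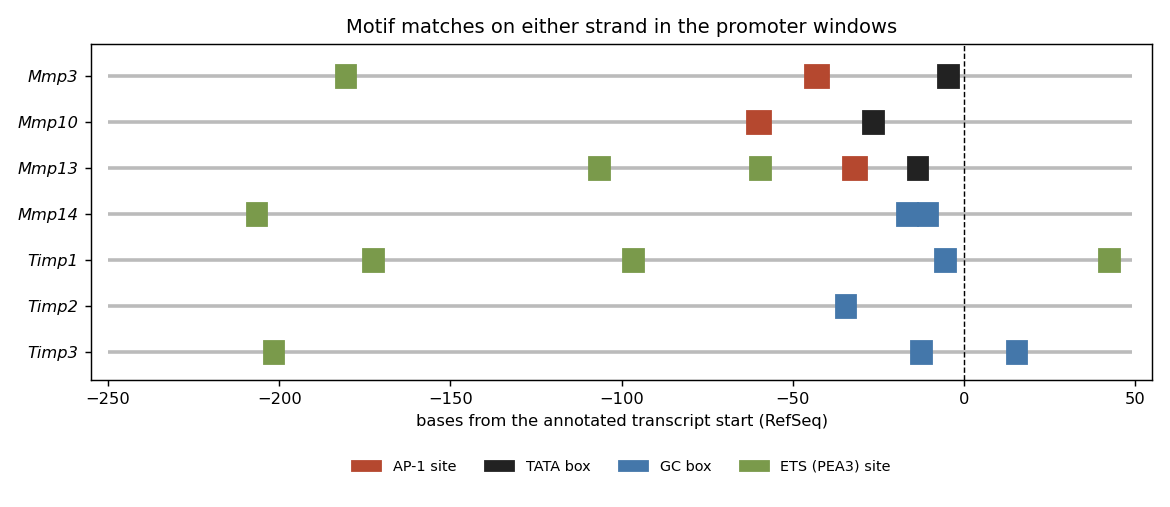
Positions of motif matches on either strand in the RefSeq promoter windows of 7 genes, in bases from the annotated transcript start (dashed line), with the grey bar marking the window searched. The AP-1 and TATA matches sit in Mmp3, Mmp10 and Mmp13, and the GC box matches sit in the other 4.

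Med4 itself was lower in all 6 knockdown libraries, at 16.6% of the NTC level with shMed4 #1 and 26.3% with shMed4 #4. For the labelled cell type, the carcinoma markers Cdh1 and Epcam had 0 and 1 reads over the 9 libraries, while the keratins Krt8 and Krt18 stood at 3.93 ± 0.41 and 20.4 ± 0.71 CPM (reads scaled so that libraries of different depth compare) in NTC and were higher in knockdown cells. The summed level of 7 epithelial markers was between 23.6 and 24.98 CPM in NTC, 93.6 to 111 under shMed4 #1 and 175 to 201 with shMed4 #4. Summed levels in the same group order were 294 to 330, 280 to 298 and 299 to 315 CPM for 8 fibroblast markers. Nearly all of this was Pdgfra, Pdgfrb, Fbln1 and Col1a1, which these cells express and which changed in opposite directions within the sum. Pdgfra and Pdgfrb fell with each hairpin (log2 fold changes of -0.913 and -0.322 for the mean of both hairpins). Fbln1 and Col1a1 rose with each hairpin (0.919 and 1.660 for the mean). The sums were 17.0 to 23.0, 15.01 to 15.7 and 15.5 to 17.5 CPM for 10 leukocyte markers. Cd3e had 0 and Ptprc 12 reads in all libraries together, and the reads were mainly of Csf1r, Cd68 and Lyz2. Lyz2 fell with shMed4 #1 and shMed4 #4 (log2 fold changes -1.45 and -1.75). Cd68 fell with shMed4 #1 (-0.81) and did not pass with shMed4 #4 (-0.41), and Csf1r passed with neither. For 5 endothelial markers the sums were 1.42 to 2.11, 2.73 to 4.39 and 2.07 to 3.22 CPM. The part of these markers in the results below was not tested. In bulk RNA, a change in the share of cells that express a gene and a change in RNA per cell cannot be told apart.

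Med4-depleted cells held more Timp1 and Timp3 transcript, a closely similar amount of Timp2, much more Mmp2 from a very low start, somewhat more Mmp9, and less Mmp3, Mmp10 and Mmp14. Against NTC, 9 of the 10 genes passed an edgeR adjusted p of 0.05 with shMed4 #1, where 41.6% of all tested genes did, and 7 of 10 with shMed4 #4, where 55.1% did. With shMed4 #1, 5 rose and 4 fell, against 21.8% and 19.8% of all tested genes, and with shMed4 #4, 4 rose and 3 fell, against 27.8% and 27.3%. With each hairpin in the same direction, 4 rose (Timp1, Timp3, Mmp2 and Mmp9) and 3 fell (Mmp3, Mmp10 and Mmp14), against 17.4% and 15.8% of all tested genes. The knockdown and NTC libraries did not overlap in 8 of the 10 genes, 4 higher and 4 lower, against 19.5% and 18.3% of all tested genes (37.8% either way). The median log2 fold change of the 10 genes was 0.11 with shMed4 #1 and 0.06 with shMed4 #4, beside -0.01 for all tested genes with either hairpin. The inhibitors had medians of 1.16 and 1.44 over 3 genes, and the proteases -0.13 and -0.17 over 7 genes. Both hairpins are set against the same NTC libraries, so their fold changes share those libraries' error.

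**Figure D2:**
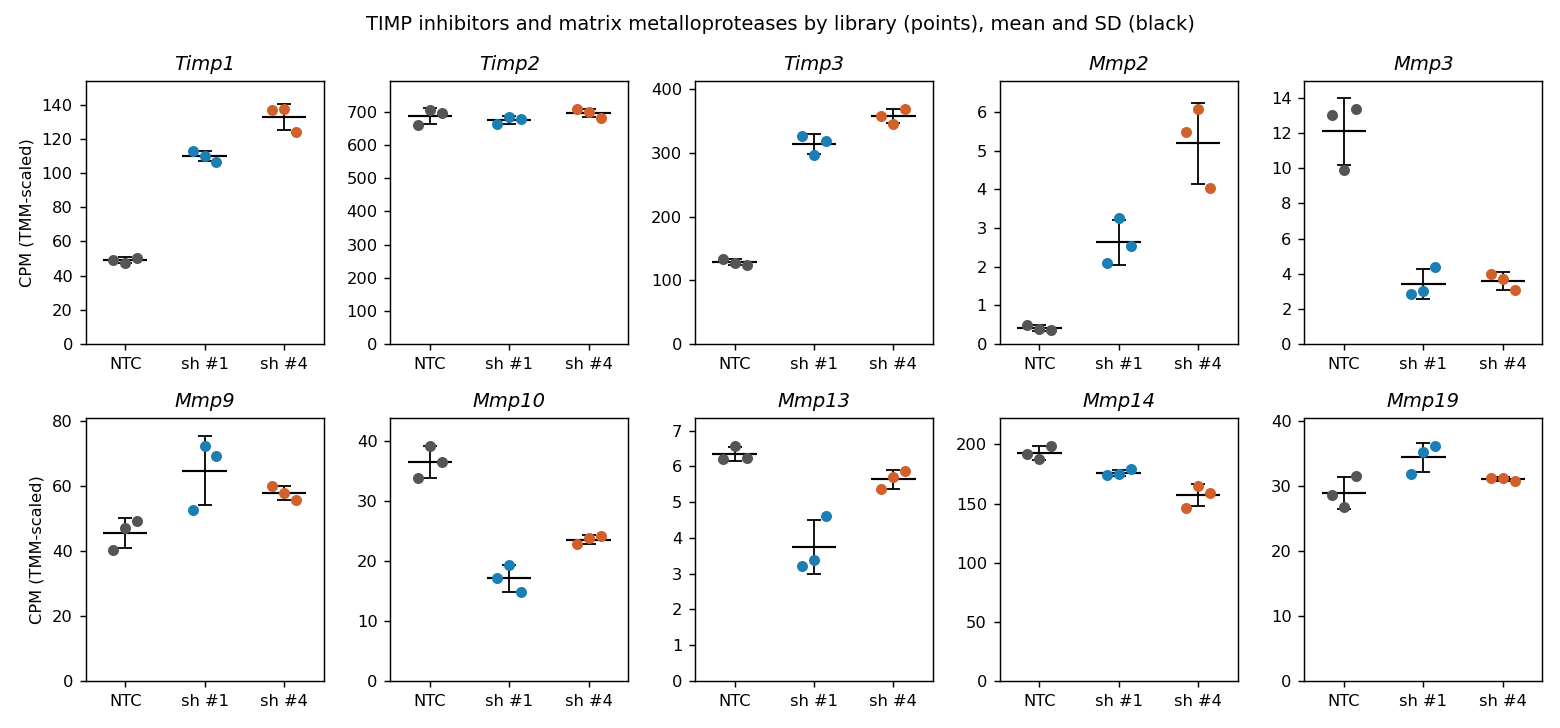
CPM of each gene in each library (points), with the group mean and SD (black), for NTC, shMed4 #1 and shMed4 #4 (3 libraries each), on axes that start at 0 and differ between panels. Timp1, Timp3 and Mmp2 step upward from NTC to each hairpin, Mmp3 and Mmp10 step downward, and the Timp2 groups overlap.

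Among the inhibitors, Timp1 (ENSMUSG00000001131.11, chromosome X, 20870166 to 20874735 in GRCm38, plus strand) encodes a secreted glycoprotein that inhibits most soluble metalloproteases and binds the Mmp9 precursor. It stood at 49.4, 47.2 and 50.4 CPM in the NTC libraries, at 113, 110 and 107 with shMed4 #1 and at 137, 137 and 124 with shMed4 #4. The 3 groups did not overlap, and shMed4 #4 was the highest. For Timp1, edgeR gave 1.16 ± 0.06 (log2 fold change and SE) for shMed4 #1, with an adjusted p of 9.11e-18, and 1.44 ± 0.06 for shMed4 #4, with an adjusted p of 3.72e-21. This is 2.24-fold and 2.70-fold.

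Timp1 lies wholly within the body of Syn1, a synapsin gene on the other strand, and shares 0 exon bases with it. Syn1 rose as well, and its mean CPM was 2.13 ± 0.06 in NTC, 10.99 ± 0.03 for shMed4 #1 and 14.3 ± 2.27 for shMed4 #4 (SD, n = 3 each). Its log2 fold changes were 2.36 (edgeR adjusted p = 1.64e-12) and 2.74 (edgeR adjusted p = 3.12e-15). Reads of Syn1 were 0.0435 per Timp1 read in NTC and 0.100 and 0.108 with the hairpins. Neighbouring genes on the X chromosome were higher too. Of 49 tested neighbours, 37 rose and 2 fell for the mean of both hairpins, beside 26.8% and 26.5% of all tested genes. Their median log2 fold change was 0.46 against 1.30 for Timp1. Syn1 was left out of these counts and this median. The part of this regional shift in the Timp1 result was not tested.

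Timp3 (ENSMUSG00000020044.13, chromosome 10, 86300372 to 86349506, plus strand) encodes the inhibitor that binds to the matrix and also blocks the ADAM and ADAMTS families. It stood at 134, 128 and 125 CPM in NTC, at 327, 297 and 319 with shMed4 #1 and at 358, 346 and 369 with shMed4 #4. Again the 3 groups did not overlap and shMed4 #4 was the highest. For Timp3, edgeR gave 1.29 ± 0.05 (log2 fold change and SE) for shMed4 #1, with an adjusted p of 2.58e-21, and 1.47 ± 0.05 for shMed4 #4, with an adjusted p of 1.25e-23, or 2.44-fold and 2.77-fold.

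Of 49 tested neighbours of Timp3, 7 rose and 19 fell for the mean of both hairpins, beside 26.8% and 26.5% of all tested genes. Their median was -0.14, and Syn3, described next, was left out. Timp3 lies within the body of Syn3, a synapsin gene on the other strand, and 21.3% of its exon sequence (1733 bases) is also exon of Syn3. Syn3 went from an NTC mean of 58.3 ± 3.6 CPM to 151 ± 7.2 under shMed4 #1 and 181 ± 9.3 under shMed4 #4 (SD, n = 3 each). Reads of Syn3 per Timp3 read stayed between 0.432 and 0.527 over the 9 libraries. Whether reads were counted by strand is not given in the sources used here. How reads from the shared stretch entered either count, or were left out as ambiguous, is therefore not known.

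Timp2 (ENSMUSG00000017466.9, chromosome 11, 118301069 to 118355740, minus strand) encodes the inhibitor that also takes part in Mmp2 activation at the cell surface. It was the most abundant of the 10 genes and stood at 660, 705 and 696 CPM in NTC, at 664, 686 and 678 with shMed4 #1 and at 708, 700 and 682 with shMed4 #4. The groups overlapped. Its log2 fold change was -0.02 for shMed4 #1 (95% interval -0.12 to 0.07, edgeR adjusted p = 0.729) and 0.02 for shMed4 #4 (95% interval -0.08 to 0.12, edgeR adjusted p = 0.743), so changes of the size seen for Timp1 and Timp3 lie outside these intervals. Cep295nl, a gene within the Timp2 body on the same strand that shares 0 exon bases with it, went from 13.7 ± 1.2 CPM in NTC to 8.24 ± 0.50 and 6.74 ± 1.2 with the hairpins, and fell with each.

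Among the proteases, the gelatinases Mmp2 and Mmp9 degrade denatured collagen and basement membrane collagen. Mmp2 (ENSMUSG00000031740.8, chromosome 8, 92827291 to 92853420, plus strand) had 4, 3 and 3 reads in the NTC libraries, 17, 27 and 22 with shMed4 #1 and 45, 49 and 33 with shMed4 #4. The 3 groups did not overlap. In CPM the group means were 0.417 ± 0.07, 2.63 ± 0.58 and 5.19 ± 1.0 (SD, n = 3 each). For Mmp2, edgeR gave 2.62 ± 0.41 (log2 fold change and SE) for shMed4 #1, with an adjusted p of 2.33e-06, and 3.59 ± 0.36 for shMed4 #4, with an adjusted p of 5.81e-11, and its size rests on 10 NTC reads in all. Mmp2 lies on a stretch of chromosome 8 that went the other way. Of its 50 tested neighbours, 45 fell and 2 rose for the mean of both hairpins, beside 26.5% and 26.8% of all tested genes. Their median was -0.75. The rise of Mmp2 therefore stood against a lower surrounding, as the plot of genes beside their neighbours shows.

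**Figure D3:**
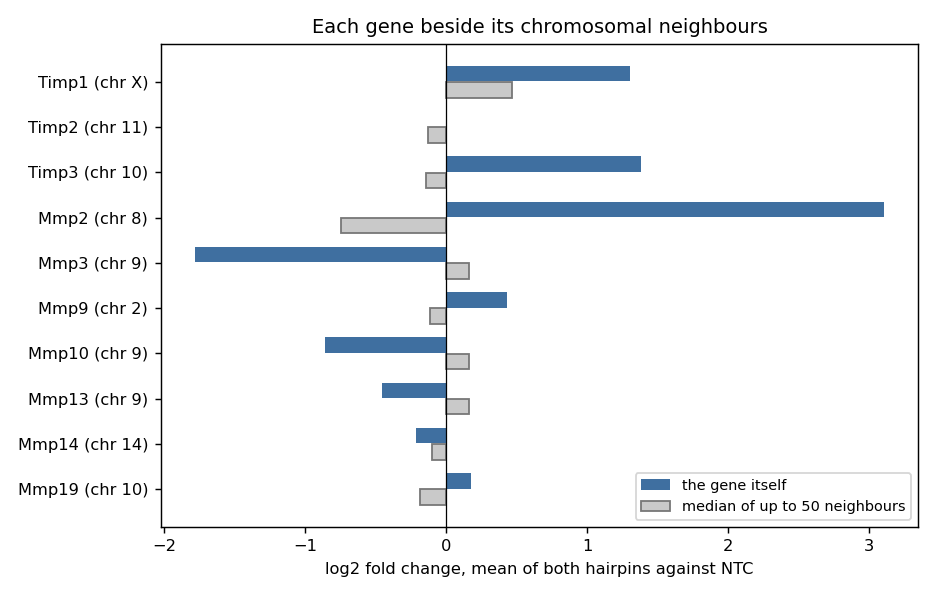
Log2 fold change for the mean of both hairpins against NTC of each gene (blue) and the median of its tested neighbours (grey). Neighbours are up to 25 on each side on the same chromosome, leaving out the genes of this family, Syn1 and Syn3. Timp1 (1.30) rose beside neighbours at 0.46, and Mmp2 (3.10) rose beside neighbours at -0.75.

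Mmp9 (ENSMUSG00000017737.2, chromosome 2, 164940780 to 164955850, plus strand) stood at 40.2, 46.9 and 49.3 CPM in NTC, at 52.6, 72.3 and 69.1 with shMed4 #1 and at 60.1, 57.97 and 55.8 with shMed4 #4. All 6 knockdown libraries were above all 3 NTC libraries, while the hairpins overlapped. For Mmp9, edgeR gave 0.51 ± 0.09 (log2 fold change and SE) for shMed4 #1, with an adjusted p of 8.74e-06, and 0.35 ± 0.09 for shMed4 #4, with an adjusted p of 0.00096. Its 50 neighbours had a median of -0.11 for the mean of both hairpins.

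The stromelysins Mmp3 and Mmp10 cleave proteoglycans, laminin and fibronectin and activate other metalloprotease precursors, and the collagenase Mmp13 cuts native fibrillar collagen. These 3 genes share a cluster on chromosome 9 with Mmp12, Mmp1b, Mmp1a, Mmp8, Mmp27, Mmp20 and Mmp7, each of which had at most 8 reads over the 9 libraries. Mmp3 (ENSMUSG00000043613.8, 7445822 to 7455975, plus strand) stood at 13.0, 9.92 and 13.3 CPM in NTC, at 2.85, 3.02 and 4.39 with shMed4 #1 and at 4.02, 3.72 and 3.06 with shMed4 #4. Every knockdown library was below every NTC library, and the hairpins overlapped. For Mmp3, edgeR gave -1.81 ± 0.19 (log2 fold change and SE) for shMed4 #1, with an adjusted p of 3.00e-10, and -1.75 ± 0.19 for shMed4 #4, with an adjusted p of 3.03e-10, which leaves 28.4% and 29.8% of the NTC level.

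Mmp10 (ENSMUSG00000047562.3, 7502352 to 7510240, plus strand) was the most abundant of the cluster, at 33.9, 39.2 and 36.5 CPM in NTC, 17.2, 19.3 and 14.8 with shMed4 #1 and 22.8, 23.8 and 24.1 with shMed4 #4. The 3 groups did not overlap, and shMed4 #1 was the lowest. For Mmp10, edgeR gave -1.09 ± 0.10 (log2 fold change and SE) for shMed4 #1, with an adjusted p of 1.01e-11, and -0.63 ± 0.09 for shMed4 #4, with an adjusted p of 3.69e-07, leaving 46.8% and 64.5% of the NTC level.

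Mmp13 (ENSMUSG00000050578.10, 7272514 to 7283331, plus strand) was low, with 50, 51 and 51 reads in NTC, 26, 28 and 40 with shMed4 #1 and 44, 46 and 48 with shMed4 #4. In CPM the groups did not overlap, at 6.20 to 6.57, 3.22 to 4.62 and 5.35 to 5.87. Mmp13 fell with shMed4 #1, by 0.75 on the log2 scale (SE 0.20, edgeR adjusted p = 0.00208), and did not pass with shMed4 #4 (-0.17, 95% interval -0.54 to 0.20, edgeR adjusted p = 0.454). For the mean of both hairpins the value was -0.46 (edgeR adjusted p = 0.0167). It did not pass without NTC replicate 2 (edgeR adjusted p = 0.0587) or with DESeq2 (adjusted p = 0.0594). Nor did it pass in the fit that pooled both hairpins as a single group against NTC (edgeR adjusted p = 0.104). The range was 0.00691 to 0.104 over all alternatives. Tested neighbours of the 3 genes outside this family, 32 to 34 each, had a median of 0.16 for the mean of both hairpins.

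Mmp14 (ENSMUSG00000000957.11, chromosome 14, 54431612 to 54445364, plus strand) encodes the membrane-type collagenase that activates the Mmp2 precursor. It was the most abundant protease and stood at 192, 187 and 199 CPM in NTC, at 174, 175 and 179 with shMed4 #1 and at 147, 165 and 159 with shMed4 #4. The 3 groups did not overlap, and shMed4 #4 was the lowest. Against NTC, edgeR gave -0.30 ± 0.05 (log2 fold change and SE) for shMed4 #4, with an adjusted p of 1.25e-05, or 81.4% of the NTC level. For shMed4 #1 the change was -0.13 ± 0.05 (adjusted p = 0.0425 by edgeR), and this call rested on the set of libraries. It was lost without NTC replicate 1 or 3, without any of the 3 shMed4 #1 replicates and without shMed4 #4 replicate 3 (edgeR adjusted p = 0.0513 to 0.139). It was also lost with DESeq2 (adjusted p = 0.0639) and with no low-count filter (edgeR adjusted p = 0.101), within a range of 0.0131 to 0.139 over all alternatives.

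Mmp19 (ENSMUSG00000025355.7, chromosome 10, 128790910 to 128800824, plus strand), a broadly expressed protease of basement membrane proteins, stood at 28.5, 26.7 and 31.5 CPM in NTC, at 31.9, 35.1 and 36.1 with shMed4 #1 and at 31.3, 31.2 and 30.7 with shMed4 #4. Only the shMed4 #1 libraries lay wholly above NTC. It rose with shMed4 #1, by 0.25 ± 0.09 on the log2 scale (SE; edgeR adjusted p = 0.0179), and did not pass with shMed4 #4 (0.10, 95% interval -0.07 to 0.28, edgeR adjusted p = 0.332). The rise with shMed4 #1 was not called without NTC replicate 1 or 2, without shMed4 #1 replicate 2 or 3 (edgeR adjusted p = 0.0525 to 0.110) or with DESeq2 (adjusted p = 0.0592), within a range of 0.00803 to 0.110 over all alternatives. Mmp19 shares 22.3% of its exon sequence with Tmem198b on the other strand, which went from 17.5 ± 1.6 CPM in NTC to 21.1 ± 1.5 and 23.3 ± 2.4 with the hairpins, so its count is uncertain.

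**Figure D4:**
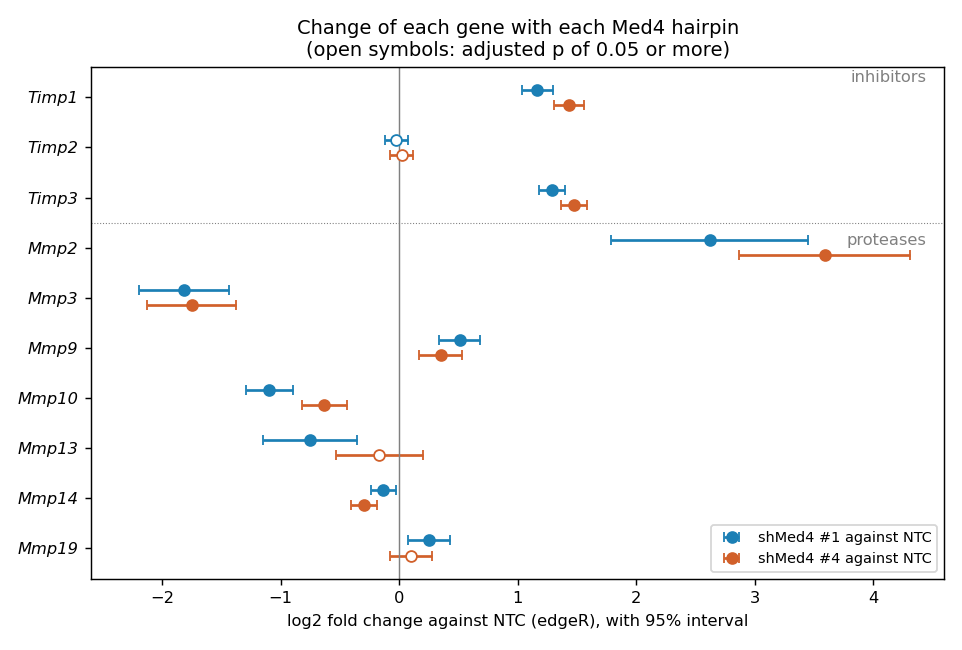
Log2 fold change of each gene against NTC with shMed4 #1 (blue) and shMed4 #4 (orange), with 95% intervals from edgeR. Filled symbols passed an adjusted p of 0.05, and the open symbols are Timp2 with both hairpins and Mmp13 and Mmp19 with shMed4 #4.

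Between the hairpins, 6 of the 10 genes differed (shMed4 #4 against shMed4 #1), where 28.0% of all tested genes did. Library values did not overlap between the hairpins in 7 of the 10 genes, against 40.2% of all tested genes. By the edgeR call, of all tested genes 14.2% were higher and 13.9% lower with shMed4 #4. Higher with shMed4 #4 were Mmp2 (log2 difference 0.97, SE 0.24, edgeR adjusted p = 0.00169), Mmp13 (0.58, edgeR adjusted p = 0.026), Mmp10 (0.46, edgeR adjusted p = 0.000872), Timp1 (0.27, edgeR adjusted p = 0.00032) and Timp3 (0.19, edgeR adjusted p = 0.00478), while Mmp14 was lower (-0.16, edgeR adjusted p = 0.0193). The fall of Mmp10 and Mmp13 was thus larger with shMed4 #1, which left less Med4 transcript. The fall of Mmp14 and the rises of Timp1, Timp3 and Mmp2 were larger with shMed4 #4. A relation to the Med4 level was not tested. Mmp3 did not differ detectably (0.07, 95% interval -0.41 to 0.55). Mmp9 did not pass (-0.16, edgeR adjusted p = 0.153) but did without shMed4 #1 replicate 1 (-0.28, edgeR adjusted p = 0.0037, within a range of 0.0037 to 0.604 over all alternatives). The difference of Mmp13 was not called without shMed4 #1 replicate 1 or 2 or shMed4 #4 replicate 2 or 3 (edgeR adjusted p = 0.0571 to 0.0982) or with DESeq2 (adjusted p = 0.0836), within a range of 0.0125 to 0.0982. That of Mmp14 was not called without shMed4 #1 replicate 3 (edgeR adjusted p = 0.0784) or shMed4 #4 replicate 1 (edgeR adjusted p = 0.173), within a range of 0.0117 to 0.173.

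To set inhibitors and proteases side by side, levels were expressed per length, as RPKM (CPM per kilobase of annotated exon). In NTC the order was Timp2 (176 ± 6.2), Timp1 (55.2 ± 1.9), Mmp14 (32.3 ± 0.96), Mmp10 (21.2 ± 1.5), Timp3 (15.8 ± 0.58), Mmp9 (12.9 ± 1.3), Mmp19 (8.18 ± 0.68), Mmp3 (6.72 ± 1.1), Mmp13 (2.37 ± 0.08) and Mmp2 (0.124 ± 0.02; RPKM, SD, n = 3 each). No neighbours in this order overlapped in their library values. With either hairpin Timp3 moved above Mmp14 and Mmp9 above Mmp10 in mean RPKM, which put all 3 inhibitors above each of the 7 listed proteases. With shMed4 #1 the library values of Mmp10 (8.58 to 11.2) and Mmp19 (9.02 to 10.2) overlapped, as did those of Mmp3 (1.58 to 2.44) and Mmp13 (1.21 to 1.73). With shMed4 #4 the lower end closed up, with Mmp13 at 2.11 ± 0.10, Mmp3 at 2.00 ± 0.27 and Mmp2 at 1.54 ± 0.31 RPKM.

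The summed RPKM of the 3 inhibitors was 241, 250 and 251 in the NTC libraries, 338, 337 and 333 with shMed4 #1 and 380, 377 and 360 with shMed4 #4. The summed RPKM of the 7 proteases was 81.1, 83.1 and 87.2 in the NTC libraries, 66.5, 74.9 and 73.3 with shMed4 #1 and 69.5, 72.7 and 70.2 with shMed4 #4. In both sums every knockdown library lay on one side of every NTC library. Inhibitor RPKM per protease RPKM was 2.98, 3.01 and 2.88 in the NTC libraries, 5.09, 4.50 and 4.55 with shMed4 #1 and 5.46, 5.18 and 5.12 with shMed4 #4. These ratios are of transcript levels chosen as a set and are given as a description. The protease sums leave out the other metalloproteases tested, among them Mmp11 and Mmp24, described below.

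The make-up of each sum changed as well. Timp2 was 71.3 ± 1.2% of inhibitor RPKM in NTC, 51.7 ± 1.1% under shMed4 #1 and 48.1 ± 0.52% under shMed4 #4 (SD, n = 3 each), while Timp1 was 22.3 ± 0.94%, 36.8 ± 0.82% and 40.1 ± 1.2%. Mmp3, Mmp10 and Mmp13 together were 36.2 ± 0.76% of protease RPKM in NTC, 18.5 ± 0.99% with shMed4 #1 and 25.1 ± 0.35% with shMed4 #4, while Mmp9 was 15.3 ± 1.1%, 25.4 ± 2.7% and 23.1 ± 1.1%. Mmp14 held 37.8 to 39.8%, 39.2 to 43.9% and 35.4 to 38.1% of protease RPKM in the same order.

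**Figure D5:**
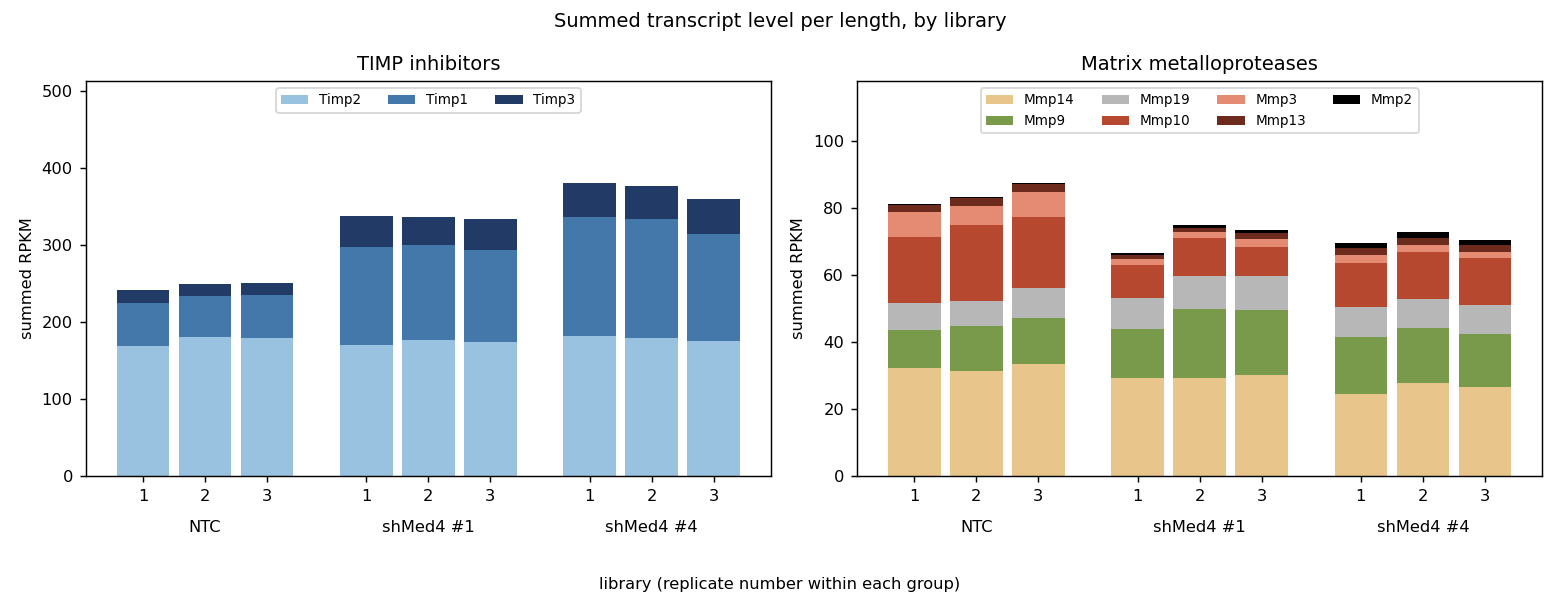
Summed RPKM of the inhibitors (left) and the proteases (right) in each library, stacked by gene, with axes that start at 0. The inhibitor sums go from 241 to 251 in NTC to 333 to 380 in the knockdown libraries, and the protease sums from 81.1 to 87.2 to 66.5 to 74.9.

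For inhibitors and proteases known to bind each other, the RPKM of Timp1 per Mmp9 averaged 4.33 ± 0.49 in NTC, 6.93 ± 1.4 under shMed4 #1 and 9.12 ± 0.30 under shMed4 #4 (RPKM ratio, SD, n = 3 each). Timp3 per Mmp14 was 0.490 ± 0.03, 1.31 ± 0.07 and 1.67 ± 0.13. Timp2 per Mmp14 was 5.46 ± 0.27, 5.88 ± 0.11 and 6.81 ± 0.50, with every knockdown library above every NTC library. Mmp14 activates the Mmp2 precursor, and Mmp2 per Mmp14 was 0.00383 ± 0.0007, 0.0265 ± 0.006 and 0.0586 ± 0.01. Mmp2 thus remained the rarer transcript of this pair in every library.

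Of the other 16 matrix metalloproteases of the mouse list and Timp4, 4 of 17 were tested, and 13 had between 0 and 55 reads over the 9 libraries, Timp4 among them with 1. Mmp11, a furin-activated protease first known from tumour stroma, went from an NTC mean of 54.2 ± 2.6 CPM to 33.1 ± 3.8 under shMed4 #1 and 28.3 ± 2.0 under shMed4 #4 (SD, n = 3 each; log2 fold changes -0.71 and -0.94, edgeR adjusted p = 4.46e-09 and 4.89e-12). The membrane-type protease Mmp24 went from 42.1 ± 2.5 to 35.8 ± 1.2 and 30.6 ± 3.1 CPM (log2 fold changes -0.24 and -0.46, edgeR adjusted p = 0.0182 and 1.55e-05). For the mean of both hairpins these 2 fell and Mmp23 and Mmp28 did not pass, with a median of -0.32 over the 4. Mmp28 fell with shMed4 #4 (-0.63, edgeR adjusted p = 0.00943) and not detectably with shMed4 #1 (0.05, edgeR adjusted p = 0.871).

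Genes that activate, localise or clear metalloproteases moved in both directions, with 7 rising and 8 falling of 18 tested (28 in the list) for the mean of both hairpins and a median of 0.03, where 26.8% of all tested genes rose and 26.5% fell (53.3% in all). Itgb3, the integrin chain that docks Mmp2 at the cell surface with Itgav, went from an NTC mean of 6.89 ± 0.56 CPM to 42.7 ± 3.7 under shMed4 #1 and 54.9 ± 2.3 under shMed4 #4. Itgav itself fell (log2 fold changes -0.20 and -0.42, edgeR adjusted p = 0.00622 and 2.64e-07). Plat, a plasminogen activator, went from 17.6 ± 1.7 to 52.9 ± 4.0 and 37.7 ± 3.6 CPM. Lcn2, the lipocalin that binds and stabilises Mmp9, went from 554 ± 32 to 298 ± 44 and 136 ± 12 CPM, and Serpine2, a protease inhibitor, from 19.6 ± 2.0 to 7.52 ± 1.4 and 2.74 ± 0.70 (SD, n = 3 each). Reck, a membrane-anchored inhibitor of several metalloproteases, did not pass (log2 fold change 0.20, edgeR adjusted p = 0.207).

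Of 8 tested ADAM and ADAMTS proteases, the families that Timp3 also inhibits, 6 rose and 0 fell for the mean of both hairpins (9 in the list, median 0.76), beside 26.8% and 26.5% of all tested genes. Adamts5, an aggrecanase, went from an NTC mean of 1.09 ± 0.09 CPM to 16.2 ± 1.5 under shMed4 #1 and 15.9 ± 1.9 under shMed4 #4, and the membrane protease Adam19 from 1.88 ± 0.34 to 13.7 ± 0.31 and 22.4 ± 0.62. Adam12 changed by log2 fold changes of 0.82 and 1.61 with the hairpins and Adamts4, also an aggrecanase, by 0.82 and 1.22. Adam17, the sheddase of TNF and EGF-family ligands, went opposite ways: it rose with shMed4 #1 (0.15, edgeR adjusted p = 0.0249), fell with shMed4 #4 (-0.23, edgeR adjusted p = 0.000766) and did not pass for the mean (-0.04, edgeR adjusted p = 0.522).

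Of 20 transcription factors known to act on metalloprotease genes, 8 rose and 6 fell for the mean of both hairpins (median 0.05), beside 26.8% and 26.5% of all tested genes. Of the 7 Fos and Jun genes, whose products form AP-1, Fosl1 (0.51, edgeR adjusted p = 3.82e-09) and Jun (0.32, edgeR adjusted p = 2.35e-06) rose, Fosl2 and Fosb (-0.70, edgeR adjusted p = 0.00154) fell, and Fos, Junb and Jund did not pass. Fosl2 went from an NTC mean of 260 ± 13 CPM to 163 ± 7.6 under shMed4 #1 and 153 ± 4.1 under shMed4 #4, with log2 fold changes of -0.68 and -0.76. Etv5 and Ets2, of the ETS family, rose with the hairpins by 0.82 and 1.62 and by 0.31 and 0.63, and Nfkb1, a subunit of NF-kB, fell (-0.32 and -0.68).

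Of 20 tested matrix proteins that these enzymes cleave, 12 rose and 4 fell for the mean of both hairpins (29 in the list, median 0.36), beside 26.8% and 26.5% of all tested genes. The basement membrane collagen Col4a1 went from an NTC mean of 583 ± 6.4 CPM to 165 ± 3.0 under shMed4 #1 and 71.5 ± 4.5 under shMed4 #4, with its partner Col4a2 beside it (327 ± 7.1, 109 ± 2.4 and 41.3 ± 1.8). The fibrillar collagen Col1a1 went from 15.4 ± 1.1 to 46.3 ± 4.0 and 51.3 ± 2.4 CPM. The secreted phosphoprotein Spp1, osteopontin, rose by log2 fold changes of 0.68 and 0.79.

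The genes whose log2 CPM followed the most abundant inhibitor and protease most closely over the 9 libraries were picked by Pearson's r among tested genes of at least 5 CPM. For Timp2 they included Mrpl23 (0.93) and Sh3bgrl3 (0.91), neither of which passed with either hairpin. For Mmp14 they were Cbr4 (0.98), Acad9 (0.98) and Eapp (0.97), which were lowest with shMed4 #4 (log2 fold changes of -0.88, -0.28 and -0.43). These r values were chosen as the highest among the tested genes in the same libraries and are given as a description.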

How the data were processed

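The authors deposited raw read counts for each gene, 1 file per library. Per the submitters' processing notes the tools were STAR and HTSeq and the build mm10 (GRCm38). No version, annotation release or strand option is given in the sources used here. The 5 closing lines of each file name no gene and were left out: reads in no gene made up 49.5 to 51.6% of all records, alignments to several places 10.5 to 11.6% and ambiguous reads 0.863 to 0.951%. Of 55335 identifiers, 55154 matched a symbol. Coordinates and exon lengths come from GENCODE M21 (GRCm38), promoters from RefSeq (GRCm38.p6).

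All 9 libraries were fitted with edgeR 4.0.16 in R 4.3.3 (filterByExpr with a minimum count of 10, TMM, glmQLFit and glmQLFTest), with Benjamini-Hochberg adjustment over 14335 genes and a threshold of 0.05. The SE is the log2 fold change divided by the square root of F, and intervals are at 95%. CPM uses TMM factors (0.969 to 1.02). Libraries within a group differed by more than sampling noise (chi-square over its degrees of freedom, 1.53 to 2.95). The fit was tested on simulated counts. Precision from depth covers counting error only.

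The 10 genes and the other lists were chosen with earlier results of these data known. Named from each other list were up to 4 genes with the smallest adjusted p for the mean of both hairpins, and overlapping genes, Med4 and the 3 closest correlates of the most abundant inhibitor and protease. One of these correlates is not reported here. Mmp23, Mmp28, Reck, Itgav, Adam17, Timp4, the other Fos and Jun genes and single markers were named after their values were seen. Alternatives were DESeq2 1.42.0, edgeR with the DESeq2 size factors or with upper-quartile scaling, limma-voom (limma 3.58.1) and no filter. A filter of 1 CPM in 3 libraries, the replicate number as a block and a threshold of 0.01 were also used. So were fits leaving out each library and fits of only the libraries compared. For the mean of both hairpins the latter kept all 9 libraries and pooled the hairpins as a single group.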

Additional observations from a re-analysis of the deposited data

Results flagged for a closer look

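For 6 of the 10 genes the hairpins differed in their direct comparison (shMed4 #4 against shMed4 #1), beside 28.0% of all tested genes. The log2 differences were 0.97 for Mmp2, 0.58 for Mmp13, 0.46 for Mmp10, 0.27 for Timp1, 0.19 for Timp3 and -0.16 for Mmp14. Between the hairpins, library values did not overlap in these 6 genes or in Mmp19, beside 40.2% of all tested genes.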

How the results depend on the processing

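Of 40 results (10 genes in 4 comparisons), 30 kept their direction and their call under all 18 alternatives, among them Timp1, Timp3, Mmp2 and Mmp10 in every comparison and Mmp3 and Mmp9 against NTC. The sign of values near 0 that passed nowhere turned for Timp2 and Mmp3. For the mean of both hairpins Timp2 was 0.0106 with no low-count filter and -0.0305 to 0.0176 over the fits that left out a library. With shMed4 #4 it was -0.0252 with upper-quartile factors and -0.00820 to 0.0411 without a library. Mmp3 between the hairpins was -0.0417 to 0.293 without a library. For the mean of both hairpins, Mmp19 (0.18, edgeR adjusted p = 0.0478) lost its call under 13 of 18 alternatives (adjusted p up to 0.252). At a threshold of 0.01 the genes called between the hairpins were 2574 in place of 4017. Leaving out each library gave 5159 to 6144 called genes for shMed4 #1, 7203 to 8183 for shMed4 #4 and 3262 to 4129 between the hairpins. Upper-quartile factors lowered the median of all genes by at most 0.05. The share of called genes that rose went from 52.5 to 46.1% for shMed4 #1 and from 50.5 to 43.9% for shMed4 #4. It went from 50.4 to 43.5% for the mean of both hairpins and from 50.5 to 45.9% between them. Same-numbered libraries of different groups did not deviate together (correlations -0.0840 to 0.0588), and not every library correlated best with its own number. With the replicate block 5829 genes were called for shMed4 #1, 7806 for shMed4 #4, 7536 for their mean and 3860 between them, and 8, 7, 8 and 6 of the 10 genes. The calls of Mmp14 for shMed4 #1 and of Mmp19 for the mean were not made with the block (edgeR adjusted p = 0.0506 for each). Depth limits Mmp2 in NTC (10 reads in all) and Mmp13.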
